A study of Homo sapiens with 2 samples.

Results

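Integrins are the cell surface receptors that hold cells to the surrounding matrix, and laminins are the basement membrane proteins that many of them bind. The genes described here were chosen by name: probes that were no control spots and whose gene symbol on the array is that of an integrin subunit or a laminin chain. They number 37 genes read by 56 of the 34127 gene probes, namely 18 integrin alpha subunits and 8 beta subunits on 33 probes and 11 laminin chains on 23 probes. They were measured in MKN74 and MKN45, established human gastric cancer cell lines. Cells of each line were electroporated with 50 nM of SET7/9 siRNA or of negative control siRNA, and total RNA was taken 48 hrs later. SET7/9, encoded by SETD7, is a lysine methyltransferase of histones and other proteins, and the question was which transcripts change when it is depleted. Each cell line was read on 1 two-colour array, with the SET7/9 siRNA sample in Cy5 and the control sample in Cy3 on both, so that dye and treatment cannot be told apart. Each line is 1 transfected culture per siRNA, and the sources used here do not say which SET7/9 siRNA the hybridised RNA came from. The log2 ratio is Cy5 over Cy3, and the value after ± is the error that the scanner software gave for that probe on that array, not a spread between cultures.

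Each integrin receptor joins 1 alpha and 1 beta subunit, and the alpha subunit largely sets the ligand: collagen, laminin, or matrix proteins with an arginine-glycine-aspartate (RGD) motif. Each laminin joins 1 alpha, 1 beta and 1 gamma chain. In simple epithelia such as the stomach lining, cells rest on laminins that hold LAMA5 or LAMA3, and ITGA6 with ITGB4 anchors keratin filaments to a laminin that holds LAMA3 and LAMB3 at hemidesmosomes. Integrins of the ITGB2 family belong to leukocytes.

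The targeted gene was measured first. SETD7 probe 1 had a log2 ratio of -2.03 ± 0.28 in MKN74 and -1.95 ± 0.28 in MKN45, whereas SETD7 probe 2 had 0.24 ± 0.22 and -0.23 ± 0.21. A probe was called measured in a channel where the software rated at least 50% of its spots well above background, which held in at least 1 channel for 60.6% of gene probes in MKN74 and 66.9% in MKN45. All 8 probes of the 5 epithelial markers EPCAM, CDH1, KRT8, KRT18 and KRT19 were measured in both channels of both arrays. Of the 6 leukocyte markers, 4 had a probe measured in at least 1 channel in each line, and so did 1 of 5 fibroblast markers in each line and 1 of 4 endothelial markers in MKN74 and 2 of 4 in MKN45. The summed scaled Cy3 intensity of the leukocyte markers was 109 in both lines, that of the fibroblast markers was 208 in MKN74 and 58.1 in MKN45, and that of the endothelial markers was 61.4 and 49.6. Scaled intensity here is the software's processed signal after a common scaling of both arrays, and levels are compared only between channels or arrays of the same probe.

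The 60-base sequences of 3 probes are shown here as examples of the patterns described, as printed in the scanner files, with their place on GRCh37. The ITGB1 probe was higher after knockdown in both lines, the ITGB6 probe was measured in MKN45 only, and the LAMA2 probe in MKN74 only. For ITGB6 and LAMA2 the annotated interval is 5844 and 1879 bases longer than the probe, so these probes span an exon junction of the spliced transcript, while the ITGB1 probe lies within 1 uninterrupted interval.
ITGB1, chr10:33200507-33200566, minus strand: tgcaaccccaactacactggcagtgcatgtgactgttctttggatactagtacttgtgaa
ITGB6, chr2:160958330-160964233, minus strand: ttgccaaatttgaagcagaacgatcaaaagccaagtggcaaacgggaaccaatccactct
LAMA2, chr6:129833622-129835560, plus strand: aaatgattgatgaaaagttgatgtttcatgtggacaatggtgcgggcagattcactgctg

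At least 1 probe was measured in at least 1 channel for 30 of the 37 genes (37 probes), and 23 probes of 19 genes were measured in all 4 channels. ITGA1, ITGA4, ITGA8, ITGAL, ITGAX, ITGB3 and LAMB4 had no probe above background in any channel. In the Cy3 channel, 27 of 56 probes (48.2%) were measured in MKN74 and 29 of 56 (51.8%) in MKN45, against 54.6% and 59.7% of all gene probes. In Cy5 the numbers were 31 and 35 of 56, so more of these probes were measured after knockdown than in the control channel of either line. Over all gene probes the share in Cy5 was also higher than in Cy3, at 60.4% in MKN74 and 66.6% in MKN45.

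No integrin or laminin probe measured in both channels differed by 1.5-fold, the cutoff used here, after SET7/9 knockdown. Without LOWESS dye normalization, LAMB3 (0.60 on the log2 scale) and ITGA2 (-0.59) passed it in MKN74. In MKN74, 0 of 27 such probes were 1.5-fold higher and 0 were 1.5-fold lower, where 0.64% and 1.45% of all probes measured in both channels were. In MKN45, 0 of 29 were higher and 0 were lower, against 0.814% and 1.62% of all. Adding probes measured in 1 channel only gave 3 of 31 higher in MKN74 (ITGAM, LAMA3 and LAMC3), where 3.78% of all probes were, and 0 lower against 1.76%. It gave 4 of 35 higher in MKN45 (ITGA11, ITGAD, ITGAM and LAMC3), where 4.81% of all probes were, and 0 lower against 1.97%. All 7 of these calls had a Cy3 signal not well above background, and their ratios therefore rest on a control level that was not measured. Setting the dim channel to the lowest signal rated well above background left no call above 1.5-fold apart from ITGAM in MKN45, whose 1 spot with a measured control signal lay below the cutoff. The median log2 ratio of the probes measured in both channels was 0.02 in MKN74 and 0.05 in MKN45, beside -0.01 and 0.00 over all such probes.

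**Figure D1:**
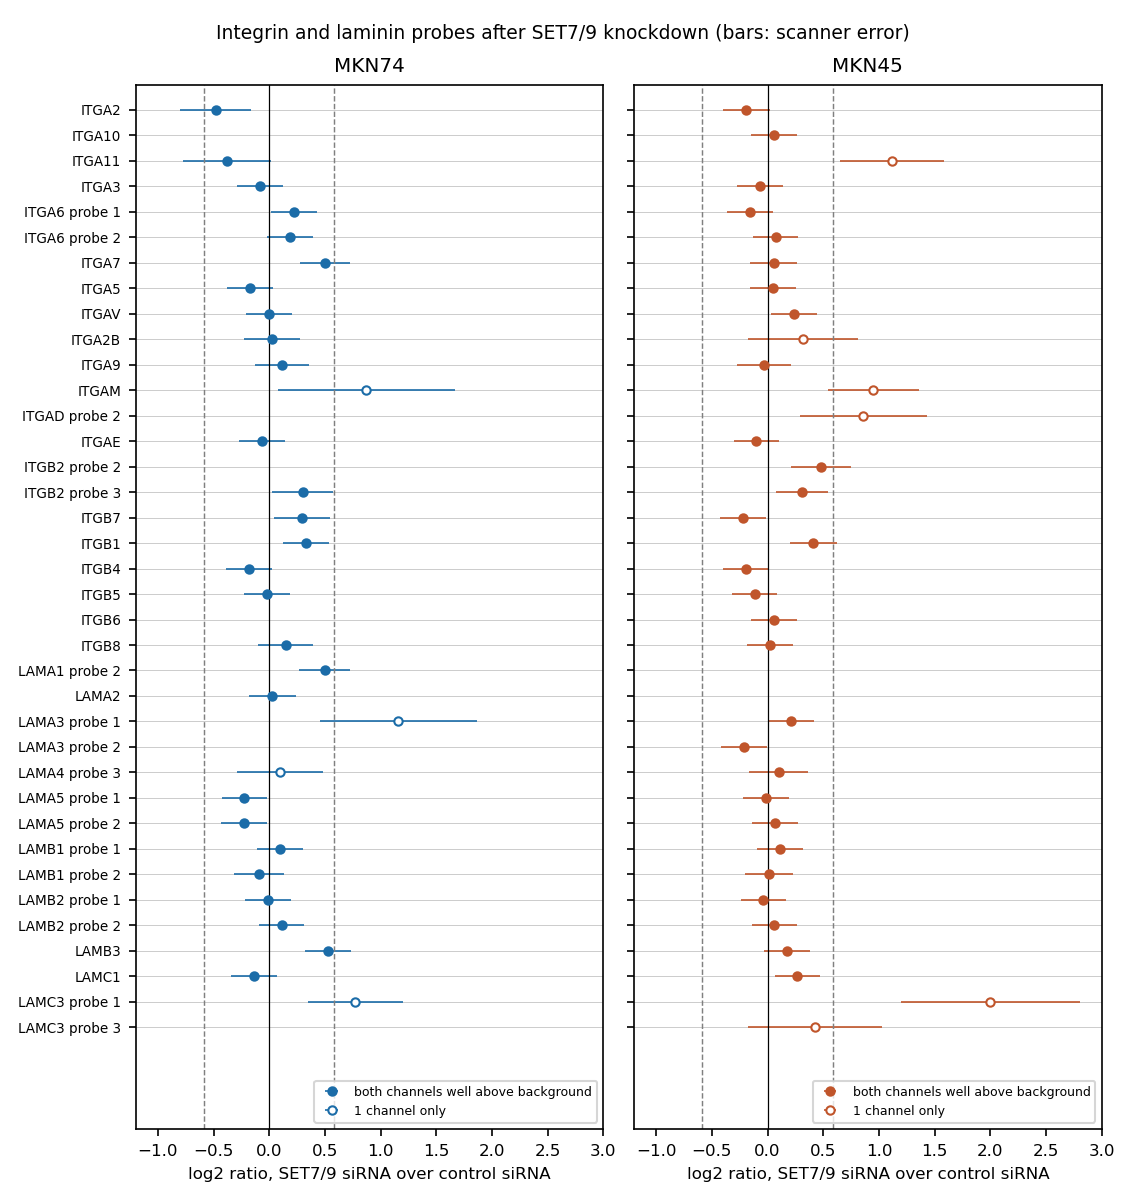
Log2 ratio of SET7/9 siRNA over control siRNA (horizontal axis) for each of the 37 integrin and laminin probes measured in at least 1 channel, with the scanner software's error as bars, filled where both channels were well above background and open where 1 was, and dashed lines at 1.5-fold. Every filled point lies between the dashed lines in both cell lines, and the points past the right line (3 in MKN74, 4 in MKN45) are all open.

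ITGB1 was the only beta subunit measured on repeated spots. It pairs with most alpha subunits, the collagen and laminin binders included. Its scaled intensity was 1059 in the control and 1329 after knockdown in MKN74, and 705 and 938 in MKN45. It was printed on 10 spots, and all 10 were higher after knockdown on each array: the log2 ratio ran from 0.25 over a median of 0.33 to 0.38 in MKN74 and from 0.32 over 0.42 to 0.45 in MKN45. The SD over spots was 0.04 on each array, against a software error of 0.21, and spots measure the repeatability of 1 hybridisation only. The lowest spot of ITGB1 was above 0 in both lines, and the highest was below the cutoff of 0.58 on the log2 scale.

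The repeated spots of ITGAV, the alpha subunit of several RGD receptors, gave another picture. In MKN74 its 10 spots ran from -0.06 over a median of 0.01 to 0.10, with 6 above 0. In MKN45 the 9 spots left after an outlier ran from 0.18 over 0.25 to 0.27, and all 9 were above 0. The spots of the lines did not overlap, but how often this holds for other probes on repeated spots was not counted. The mean ratios of ITGAV differed by 0.24 ± 0.29, within the software's error. The difference was not tested since each line has 1 array. ITGAM, the alpha subunit of a myeloid receptor, ran from 0.09 to 1.49 over 8 spots in MKN74 and from 0.34 to 1.86 over 9 spots in MKN45, but its Cy3 signal was well above background on 0 and 1 of them. Its scaled intensities were 8.24 and 15.1 in MKN74 and 9.66 and 18.6 in MKN45, and the 1 spot with a measured Cy3 signal, in MKN45, had a log2 ratio of 0.37, below the probe's mean of 0.95 and below the cutoff. PTPRC, the marker of all leukocytes, read at most 14.3 in Cy3 of MKN74, not well above background, and 22.3 in MKN45 on its brightest probe.

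**Figure D2:**
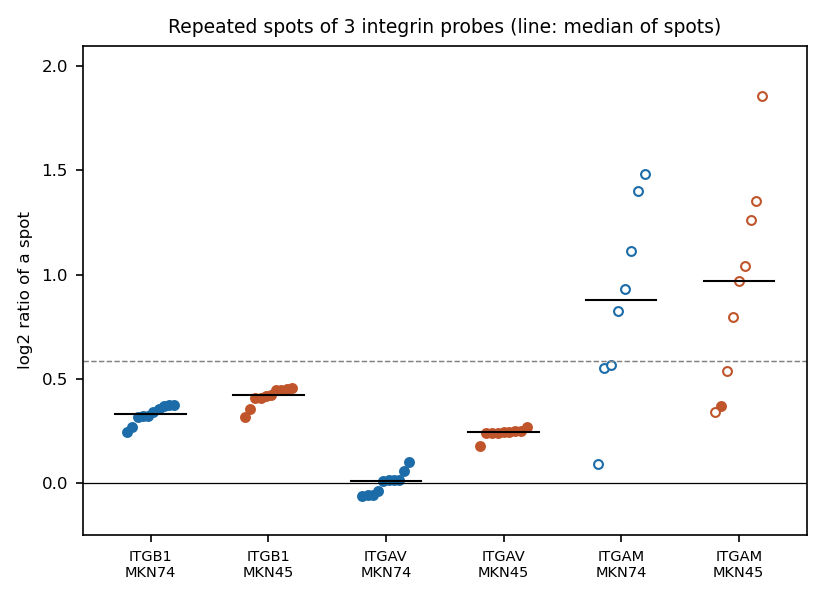
Log2 ratio of every spot (vertical axis) of the 3 integrin probes measured on repeated spots, by cell line, filled where Cy3 was well above background, with a line at the median and a dashed line at 1.5-fold. The ITGB1 spots of both arrays lie between 0.25 and 0.45, the ITGAV spots of MKN45 lie above those of MKN74, and the ITGAM spots spread widely and are nearly all open.

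The other beta subunits had 1 measured spot per probe, and their ratios lay on both sides of 0. ITGB4, the partner of ITGA6 in hemidesmosomes, had scaled intensities of 13591 in the control and 11957 after knockdown in MKN74 and of 11013 and 9619 in MKN45, a log2 ratio of -0.18 ± 0.20 and -0.20 ± 0.20. ITGB5, an ITGAV partner, had -0.02 ± 0.20 and -0.12 ± 0.20. ITGB8, which pairs with ITGAV and activates latent TGF-beta, had 0.15 ± 0.25 and 0.02 ± 0.20. These ratios lay within their errors in both lines. ITGB6, another ITGAV partner of epithelia, was measured in MKN45 only and had 0.06 ± 0.21 there. ITGB2, the common beta subunit of leukocyte integrins, was dim: its probe 3 read 39.6 in the control and 48.7 after knockdown in MKN74 and 46.7 and 57.9 in MKN45, log2 ratios of 0.30 ± 0.28 and 0.31 ± 0.23. ITGB2 probe 2 had 0.48 ± 0.27 in MKN45 and was not measured in MKN74, and ITGB2 probe 1 was measured in no channel. ITGB7, the lymphocyte beta subunit that pairs with ITGAE, had 0.30 ± 0.25 in MKN74 and -0.22 ± 0.21 in MKN45.

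The alpha subunits that bind laminin were all measured in both lines. ITGA3, a receptor subunit for the laminins of LAMA3 and LAMA5, had -0.08 ± 0.20 in MKN74 and -0.07 ± 0.20 in MKN45. ITGA6, the partner of ITGB4, had 0.22 ± 0.21 and -0.16 ± 0.20 on its probe 1 and 0.19 ± 0.20 and 0.07 ± 0.20 on its probe 2, so its probes matched in sign in MKN74 and not in MKN45. ITGA7, best known from muscle, read 72.0 in the control and 102 after knockdown in MKN74 and 132 and 138 in MKN45, with 0.50 ± 0.23 and 0.05 ± 0.21. The ITGA7 ratio passed its error in MKN74 alone, and the difference between the lines, -0.44 ± 0.31, was not tested.

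The collagen binder ITGA2 had, in MKN74, the lowest ratio of the integrin and laminin probes measured in both channels. It read 34.6 in the control and 24.8 after knockdown in MKN74 and 112 and 98.0 in MKN45, with log2 ratios of -0.48 ± 0.32 and -0.19 ± 0.21. ITGA10, a collagen receptor of cartilage, was measured in MKN45 only and had 0.06 ± 0.21. ITGA11, a collagen receptor of fibroblasts, had -0.38 ± 0.39 in MKN74. In MKN45 its Cy3 signal of 6.39 was not well above background and its Cy5 signal was 13.9, for a ratio of 1.12 ± 0.46 and a bound of no less than 1.15-fold.

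Among the remaining alpha subunits no ratio measured in both channels passed its error apart from that of ITGAV in MKN45. ITGA5, the fibronectin receptor subunit, had -0.18 ± 0.21 in MKN74 and 0.05 ± 0.21 in MKN45. ITGA9, a receptor subunit for tenascin and osteopontin, had 0.11 ± 0.24 and -0.03 ± 0.24, and ITGAE, which binds E-cadherin, had -0.07 ± 0.20 and -0.10 ± 0.20. ITGA2B, the platelet fibrinogen receptor subunit, had 0.02 ± 0.25 in MKN74 and 0.32 ± 0.50 in MKN45, where its Cy3 signal was not well above background. ITGAD, a leukocyte subunit, was measured in Cy5 of MKN45 only, on its probe 2, with 0.86 ± 0.57 and a bound of no less than 1.05-fold.

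The laminin chains of hemidesmosomes are given first. LAMB3, a beta chain (probe at GRCh37 chr1:209788356-209788415, minus strand), read 2797 in the control and 4030 after knockdown in MKN74 and 8875 and 10023 in MKN45. Its ratio was 0.53 ± 0.21 in MKN74, above every other member probe measured in both channels, and 0.18 ± 0.20 in MKN45, within its error. LAMA3, an alpha chain, was measured in both channels in MKN45 only, where its probes gave opposite signs, 0.21 ± 0.20 on probe 1 (GRCh37 chr18:21534735-21534794, plus strand) and -0.21 ± 0.21 on probe 2 (chr18:21375992-21376051). In MKN74 LAMA3 probe 1 read 7.88 in Cy3, not well above background, and 17.6 in Cy5, a ratio of 1.16 ± 0.71 that leaves no bound above 1-fold.

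Among the other laminin chains, no probe measured in both channels of both lines had a ratio past its error in both. LAMA5, the alpha chain of most epithelial basement membranes, had -0.22 ± 0.21 on probe 1 and -0.23 ± 0.21 on probe 2 in MKN74, and -0.01 ± 0.20 and 0.07 ± 0.20 in MKN45. Without LOWESS dye normalization LAMA5 probe 2 had 0.13 in MKN74, the opposite sign. LAMC1, the common gamma chain, had -0.14 ± 0.20 in MKN74 and 0.27 ± 0.21 in MKN45. LAMA1, a chain of embryonic basement membranes, was measured in MKN74 only, on probe 2, where it read 64.7 in the control and 91.5 after knockdown, with 0.50 ± 0.23. LAMA2, the muscle and nerve chain, was also measured in MKN74 only, with 0.03 ± 0.21. LAMA4, a chain of vessels, had 0.09 ± 0.39 in MKN74, where Cy3 was not well above background, and 0.10 ± 0.26 in MKN45 on probe 3, while its other 3 probes were measured in no channel.

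LAMB1 and LAMB2, the beta chains that join most laminins, stayed within their errors. LAMB1 had 0.10 ± 0.20 and 0.11 ± 0.20 on probe 1 and -0.09 ± 0.22 and 0.01 ± 0.21 on probe 2. LAMB2 had -0.01 ± 0.21 and -0.04 ± 0.20 on probe 1 and 0.11 ± 0.20 and 0.06 ± 0.20 on probe 2. LAMC3, a minor gamma chain, was measured in Cy5 only. Its probe 1 read 16.0 in Cy3 and 27.3 in Cy5 in MKN74, a ratio of 0.77 ± 0.43 with a bound of no less than 1.24-fold, and 2.71 and 10.8 in MKN45, a ratio of 2.0 ± 0.81 with no bound above 1-fold. LAMC3 probe 3 had 0.43 ± 0.60 in MKN45.

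Across both lines, 8 of the 23 probes measured in all channels had a ratio above 0 in both, 7 were below 0 in both, and 8 had opposite signs. In MKN74, 9 of the 23 had a ratio larger than its own error, and in MKN45 5 did. Only 2 of the 23, ITGB1 and ITGB2 probe 3, did so in both lines with the same sign, and both were higher after knockdown. With another background correction (normexp) and within-array loess, ITGB1 had 0.35 in MKN74 and 0.40 in MKN45. ITGB2 probe 3 then had 0.19 and 0.23, no longer past its errors. None of these counts was made over all probes, so whether the members stand apart in them was not tested. Probes of the same gene could be compared where at least 2 were measured in both channels, which held for 4 genes in MKN74 and 6 in MKN45, and the signs matched for 2 of each. The widest gap between probes of a gene was 0.42 on the log2 scale, for LAMA3 in MKN45.

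**Figure D3:**
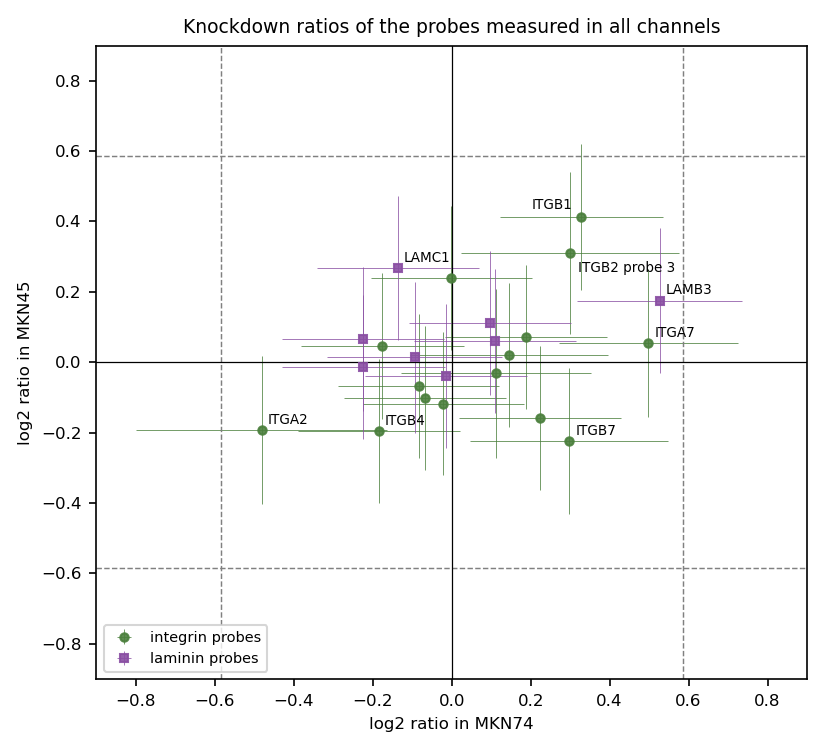
Log2 ratio in MKN45 (vertical axis) against that in MKN74 (horizontal axis) for the 23 integrin and laminin probes measured in all 4 channels, with the scanner software's errors as bars and dashed lines at 1.5-fold. All points lie inside the dashed square, ITGB1 and ITGB2 lie to the upper right, and ITGB7 lies at 0.30 in MKN74 and -0.22 in MKN45.

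A response shared by both lines was tested with limma, which fitted both arrays against 0 over the 19595 probes measured in at least 1 channel of each array, with 1 residual degree of freedom. The lines were thereby treated as replicates of each other. After Benjamini-Hochberg adjustment 0 of 29 integrin and laminin probes were called at 0.05, and 0% of all probes. At an unadjusted p under 0.05 limma gave 5 of the 29 and 2569 of all probes, or 13.1%. The lowest adjusted p of a member in limma was 0.26, for ITGAM, whose control signal was not measured in either line, and that of ITGB1 was 0.36. With another background correction (normexp) and within-array loess, limma called 2 of the 29 and 8.72% of all probes: ITGB1 with a mean log2 ratio of 0.38 and an adjusted p of 0.0068, and LAMB3 with 0.37 and 0.018. The calls on ITGB1 and LAMB3 were made under that setting alone, which changes the background correction and the dye normalization together.

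Some members differed more between the control samples of the lines than any member's knockdown ratio measured in both channels, which was 0.53 at most. Others differed less. A level difference is taken between arrays and a ratio within 1 array. Of the 33 probes with Cy3 well above background on at least 1 array, 13 probes of 10 genes (39.4%) were at least 2-fold higher in MKN45, where 21.7% of all such probes were. Another 4 probes (12.1%) were at least 2-fold lower in MKN45, where 22.8% of all such probes were. The median log2 difference, MKN45 minus MKN74, was 0.54 for the members and -0.05 over all. Each line is 1 culture, so the differences carry no test, and the error given is that of the software for both signals. In bulk RNA, fewer cells that express a gene and less RNA of it per cell cannot be told apart. The difference in Cy5, measured in the SET7/9 siRNA samples on the same arrays, had the same sign for 22 of the 23 probes measured in all channels. Both channels of an array share its scaling. The Cy5 line difference is the Cy3 one plus the difference of the knockdown ratios, which were small for these probes. The matching signs were therefore largely set beforehand and add little.

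**Figure D4:**
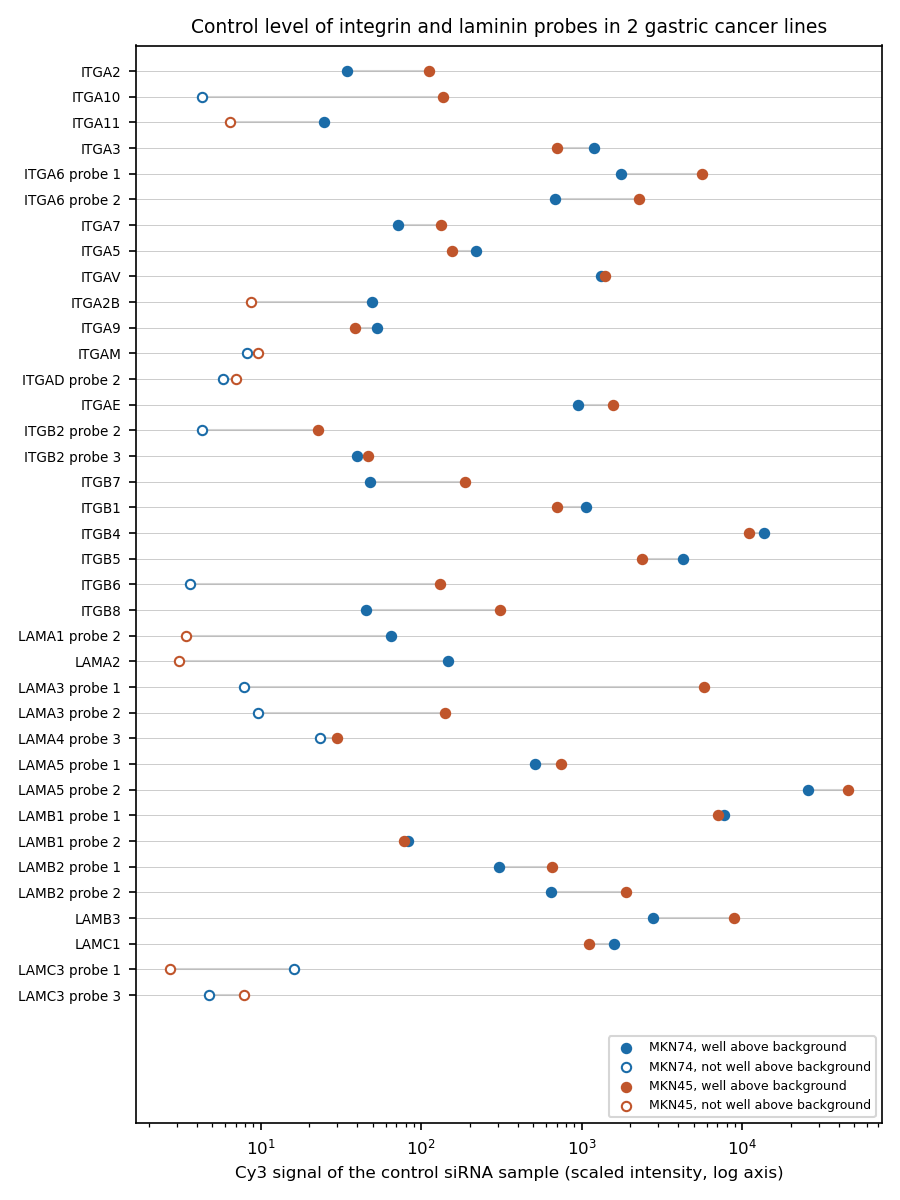
Scaled Cy3 intensity of the control siRNA samples (horizontal log axis) of MKN74 and MKN45 for each of the 37 measured probes, filled where well above background. The widest gap is that of LAMA3 probe 1 (7.88 in MKN74, 5757 in MKN45), while LAMA1, LAMA2 and ITGA2B lie higher in MKN74.

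The laminin chains LAMA3 and LAMB3 were higher in MKN45. LAMA3 probe 1 read 7.88 in the MKN74 control, not well above background, and 5757 in the MKN45 control, so that it was at least 261-fold higher in MKN45. LAMA3 probe 2 read 9.62 and 140, at least 6.37-fold higher. With normexp and loess the log2 differences of these probes, 9.51 and 3.87 as reported, became 6.29 and 1.43, which are below those bounds. LAMB3 was 3.17-fold higher (log2 difference 1.67 ± 0.20). The laminin receptor subunit ITGA6 was 3.18-fold higher on probe 1 (1.67 ± 0.20) and 3.35-fold on probe 2 (1.74 ± 0.20), whereas ITGB4 was not (-0.30 ± 0.20). LAMB2 was 2.14-fold and 2.96-fold higher on its probes, and LAMA5 1.45-fold and 1.77-fold. With normexp and loess LAMB2 probe 1 had a log2 difference of 0.99, just below 2-fold. LAMB1 differed by -0.13 ± 0.20 and -0.07 ± 0.22, within its errors.

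The promoters of LAMA3 and LAMB3, hemidesmosome laminin chains that were both over 2-fold higher in MKN45, are given by sequence. RefSeq sequence of GRCh38.p14, 250 bases before the start, was at hand for 26 of the 37 genes. A search made after the values were seen for TGANTCA, the core bound by AP-1 factors, which reads the same on both strands, matched LAMA3 and LAMB3 and no other member, among 33 start sites of members. These were 2 of the 33, and a match stood in 6.57% of all 35116 start sites listed, so the match does not set the members apart. The LAMA3 matches begin 125 and 69 bases before the start, and that of LAMB3, in 1 of its 3 start sites, begins 67 bases before. LAMA3 has 1 start site listed, and whether both LAMA3 probes read transcripts from it was not determined. A match describes the letters and is not evidence of binding. Capitals mark the matches.
LAMA3, chr18:23872770-23873019, plus strand: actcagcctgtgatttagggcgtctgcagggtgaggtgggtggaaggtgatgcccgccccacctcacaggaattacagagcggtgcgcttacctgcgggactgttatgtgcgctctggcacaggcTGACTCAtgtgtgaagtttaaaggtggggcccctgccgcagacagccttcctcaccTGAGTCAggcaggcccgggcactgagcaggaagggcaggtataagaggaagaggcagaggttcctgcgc
LAMB3, chr1:209651375-209651624, minus strand: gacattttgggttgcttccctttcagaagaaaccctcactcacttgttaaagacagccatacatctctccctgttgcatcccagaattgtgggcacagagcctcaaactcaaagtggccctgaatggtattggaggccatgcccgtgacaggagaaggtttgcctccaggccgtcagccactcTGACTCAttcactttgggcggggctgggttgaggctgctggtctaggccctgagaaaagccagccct

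Several integrin subunits were also higher in MKN45. ITGB6 read 3.65 in the MKN74 control, not well above background, and 130 in the MKN45 control, at least 5.92-fold higher in MKN45. ITGB8, also a partner of ITGAV, was 6.92-fold higher (2.79 ± 0.25), while ITGAV itself differed by 0.08 ± 0.20. ITGA10 read 4.29 and 137, at least 6.23-fold higher in MKN45. ITGA2 was 3.23-fold higher (1.69 ± 0.27) and ITGB7 3.90-fold (1.96 ± 0.25). With normexp and loess the log2 differences became 1.80 for ITGB6, 1.81 for ITGB8, 1.57 for ITGA10, 0.92 for ITGA2, which is below 2-fold, and 1.12 for ITGB7. Those of ITGB6 and ITGA10 are below their bounds. ITGA7 was 1.84-fold higher and ITGAE 1.66-fold, and ITGB2 differed by 0.24 ± 0.29 on its brighter probe 3. ITGB2 probe 2, counted among the 13, read 4.31 and 22.7, a bound of only 1.03-fold, and had a log2 difference of 0.47 with normexp and loess. ITGAM and ITGAD were not well above background in Cy3 of either line, and LAMA4 probe 3 read 23.4 in MKN74, not well above background, and 30.1 in MKN45.

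Fewer genes were higher in MKN74, and the largest gaps among them were laminin alpha chains. LAMA2 read 147 in the MKN74 control and 3.11 in the MKN45 control, not well above background, so that it was at least 12.2-fold higher in MKN74. LAMA1 probe 2 read 64.7 and 3.44, at least 5.38-fold higher in MKN74. ITGA2B read 49.6 and 8.66, at least 4.12-fold higher, and ITGA11 read 24.9 and 6.39, at least 2.07-fold higher in MKN74, with a log2 difference of -1.96 ± 0.63. In Cy5, measured in both lines, ITGA11 read 19.1 and 13.9, a log2 difference of -0.47 ± 0.31. With normexp and loess the log2 differences became -1.63 for LAMA2, -1.05 for LAMA1 and, below 2-fold, -0.69 for ITGA2B and -0.28 for ITGA11. All of them are smaller than the bounds given above. Smaller differences toward MKN74 were seen for ITGB5 (1.81-fold), ITGA3 (1.70-fold), ITGB1 (log2 difference -0.59 ± 0.20), LAMC1 (1.43-fold) and ITGA5 (1.41-fold), each larger than its error. ITGA9 was 1.38-fold higher in MKN74, a log2 difference of -0.47 ± 0.26 that turned to 0.18 with scaling on the 75th percentile.

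Genes around these receptors were read from lists of adaptors, ligands and hemidesmosome proteins. Of all probes measured in both channels, 0.64% were 1.5-fold higher and 1.45% lower in MKN74. In MKN45 these shares were 0.814% and 1.62%. Of 20 integrin adaptors such as talins, kindlins and vinculin, 18 genes in MKN74 and 20 in MKN45 had a probe measured in both channels. None of them was 1.5-fold higher by such a probe in either line, and 0 were lower in MKN74. In MKN45 1 of 29 such probes was lower, a dim FERMT2 (kindlin-2) probe with -0.65 ± 0.41. Another FERMT2 probe read 1153 in the control of MKN74 and was not well above background in MKN45. Of 18 matrix ligands and basement membrane genes, 6 in MKN74 and 9 in MKN45 were measured in both channels, on 6 and 13 probes. Of these probes 0 passed the cutoff in MKN74, and in MKN45 0 were higher and 2 were lower. The 2 lower ones were VTN (vitronectin, an ITGAV ligand) with -2.20 ± 0.30 and TNC (tenascin-C, an ITGA9 ligand) with -1.08 ± 0.41. VTN had 0.83 ± 0.41 in MKN74, where its Cy3 signal was not well above background. Of 7 hemidesmosome genes, 5 in MKN74 and 6 in MKN45 were measured in both channels, and 0 passed the cutoff in either line. The median log2 ratios of these lists in MKN74 and MKN45 were -0.07 and 0.03 for adaptors, -0.05 and 0.00 for ligands and 0.02 and -0.03 for hemidesmosome genes.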

How the data were processed

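Total RNA of MKN74 and MKN45 cells was hybridised on 2 Agilent Human GE 4x44K v2 arrays of the same slide and scan. Per the file headers and the submitters' processing notes, the authors made the files with Agilent Feature Extraction 10.7.3.1. The deposited intensity values of each spot and channel include background subtraction and linear and LOWESS dye normalization. For each spot the deposited files give the log10 ratio (Cy5 over Cy3), an error and a p-value that the software modelled. A rounded table of log2 ratios was deposited as well.

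Ratios were put on the log2 scale, outlier spots were left out (549 in MKN74, 534 in MKN45), and spots of a probe were averaged. Probes entered where the software rated 50% or more of their spots well above background in 1 channel or both. The cutoff was 1.5-fold, and 2-fold between lines after Aquantile scaling (limma 3.58.1, R 4.3.3). For bounds the dim channel was raised, where lower, to the lowest scaled signal rated well above background, which is 22.0 in Cy3 and 12.8 in Cy5 of MKN74 and 12.0 and 6.73 in MKN45, and are open to dye bias without a dye swap. Saturated gene spots numbered 0. The number of arrays limits the precision, and no p-value across genes was made for 1 array. The shared response was fitted with lmFit and eBayes. On simulated data for it limma recovered 100% of 200 changed probes among 19595, with 2.91% false calls. On the arrays the same fit called 0 of 19595 probes at an adjusted p under 0.05. How large a response it can find there was not tested, and the 100% holds for the simulated data only. Of the genes that the name rule finds, 1 is not reported here. Members and lists were chosen with earlier results of these data known. Every member with a measured probe is named with values and the others are named only. Other genes named are SETD7, the epithelial markers, the leukocyte marker PTPRC and list genes past 1.5-fold measured in both channels.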

Additional observations from a re-analysis of the deposited data

Results flagged for a closer look

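ITGB7 was the only integrin or laminin probe, among those measured in all 4 channels, whose log2 ratios had opposite signs in the lines with each larger than its own error. It had 0.30 ± 0.25 in MKN74 and -0.22 ± 0.21 in MKN45, a difference (MKN45 minus MKN74) of -0.52 ± 0.33. The MKN74 ratio became 0.051 with normexp and loess and 0.16 without LOWESS, both within its error. The difference was not tested, since each line has 1 array.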

How the results depend on the processing

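No paired analysis was possible because each cell line has only 1 array and the labels give no shared replicate numbers. The 3 probes at least 1.5-fold higher in MKN74 became 0 with normexp and loess, with the deposited table, with both channels required and with the software's p under 0.01, 1 at 2-fold and 8 without a filter. The 4 in MKN45 became 0 under those first settings and 2 at 2-fold. The deposited table lists 27 of the 31 and 30 of the 35 probes, but 0 of the 3 and 1 of the 4 past the cutoff, so its 0 says little about them. Probes at least 1.5-fold lower, 0 in each line, became 1 in MKN74 without LOWESS and 2 in each line without a filter. Between lines, the 13 probes higher in MKN45 became 8 with Cy3 required on both arrays and 10 with normexp and loess. The 4 lower became 0 with Cy3 required on both arrays, 2 with normexp and loess and 7 at 1.5-fold. The median line difference of 0.54 became 0.87 with the 75th percentile, which moved the median of all probes from -0.05 to 0.15, 0.050 without a filter and 0.24 with the brightest probe per gene. The 0 members called by limma became 2 with normexp and loess. The causes were not tested. No called ratio or line difference changed sign under the alternatives run, which for a single probe were normexp with loess, no LOWESS, the deposited table and outlier spots kept for ratios, and the 75th percentile, normexp and the Cy5 channel for levels. Signal over background limits all dim probes.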
